A study of Mus musculus with 3 samples.

Results

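The intercalated cells (ICs) of the mouse renal medulla were all cells that the deposited annotation assigned to the cell type IC. They numbered 4322 of 181257 cells, of which 2051 came from healthy controls, 1140 from day 28 and 1131 from day 84 after reversal of unilateral ureteric obstruction (R-UUO). The annotation held 7 cell types and 25 clusters, and the IC type was 1 cluster with the same 4322 cells. The per-cell tables give no expression of single genes, so the IC label could not be checked against its markers Atp6v1g3 and Slc4a1, and gene expression was not analysed here.

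ICs sit singly among the principal cells of the collecting duct (CD) and control acid-base balance. They pump protons with a V-ATPase, to which the subunit encoded by Atp6v1g3 belongs, and the acid-secreting type returns bicarbonate to the blood through the anion exchanger encoded by Slc4a1. They are rich in mitochondria. In the normal kidney they are found in the cortical and outer medullary CD and the first stretch of the inner medullary CD, and they thin out towards the papillary tip. Principal cells, the other cells of the duct, reabsorb water through Aqp2.

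The mice were male BALB/c. In the R-UUO groups the left ureter was clamped at 12 to 13 weeks of age and later released. The methods give the interval as 5 to 7 days depending on strain. BALB/c mice whose renal function the paper followed long term had 7 days, and the interval of the sequenced mice is not given separately. For long-term study the opposite kidney was removed 10 days after release. No operation is described for the healthy controls, so effects of R-UUO and of nephrectomy cannot be told apart. The medullas of 3 to 4 mice went into each pool, giving 4 control pools, 4 pools at day 28 and 2 pools at day 84, from 12, 12 and 6 mice. The labels call the tissue kidney papilla, while the cells include proximal tubule (PT) and outer medullary types. The pool was the replicate throughout.

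The pools held 13013 to 24338 cells. The median UMI count over all cells of a pool was 1139 to 1578 in the controls, 1566 to 3302 at day 28 and 751 to 911 at day 84. A droplet barcode of 16 bases was shared with another pool of the same condition in 45.2% of ICs and 46.8% of other cells. By condition it was 56.1% of ICs in controls, 48.2% at day 28 and 22.6% at day 84. Among other cells it was 57.6%, 48.6% and 24.7%. In contrast, 7815 of 127539 droplet barcodes occurred in more than 1 condition. The pools of a condition thus shared droplets and the conditions mostly did not, so droplet run and condition cannot be told apart. Of the 2468 cells of other pools found in the droplets of ICs, 58 were ICs (2.35%), namely 38 of 1504 among controls (2.53%), 6 of 708 for day 28 (0.847%) and 14 of 256 for day 84 (5.47%).

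The first question was whether the share of ICs in the medulla changed after obstruction. ICs made up 2.29%, 3.02%, 2.63% and 2.41% of the cells in the 4 control pools. At day 28 they were 2.54%, 2.45%, 1.86% and 1.01%, and at day 84 they were 2.06% and 3.05%. The lowest value was that of pool D28 4, with 158 ICs of 15579 cells (95% Wilson interval 0.868% to 1.18%), and the other 9 pools held 308 to 736 ICs each. The groups overlapped.

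The mean share was 2.59% ± 0.325 in controls (SD, n = 4 pools), 1.97% ± 0.703 at day 28 (n = 4) and 2.56% ± 0.695 at day 84 (n = 2). On log2 odds the difference from controls was -0.48 at day 28 (SE 0.301, 95% interval -1.17 to 0.21, limma adjusted p = 0.207, exact permutation p = 0.200). The day 84 difference was -0.04 (95% interval -0.88 to 0.81, limma adjusted p = 0.923). Day 84 minus day 28 was 0.44 (limma adjusted p = 0.508), and 0.15 without D28 4 or 0.16 without D84 2. Of the 7 cell types, 4 passed the threshold of an adjusted p of 0.05 at day 28 (57.1%), 2 at day 84 (28.6%) and 1 between the days (14.3%). ICs passed it in none of these. The day 28 difference was -0.19 without pool D28 4, -0.25 without PT cells in the total (limma adjusted p = 0.492), and -0.78 over cells with at least 1000 UMIs (limma adjusted p = 0.0555). With 2 pools at day 84, the exact test cannot give a p below 0.0667, against 0.0286 for 4 pools against 4.

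The share of ICs varied less between pools than that of most clusters. From the lowest to the highest of the 10 pools it spanned 3.00-fold, the 6th narrowest range of 25 clusters, while inner medullary cluster IM-CD spanned 14.3-fold, deepIM-CD 25.9-fold and InjuredCD 107-fold. By the coefficient of variation the IC share was the 4th least variable among the control pools (0.125) and the 9th among the day 28 pools (0.357).

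**Figure D1:**
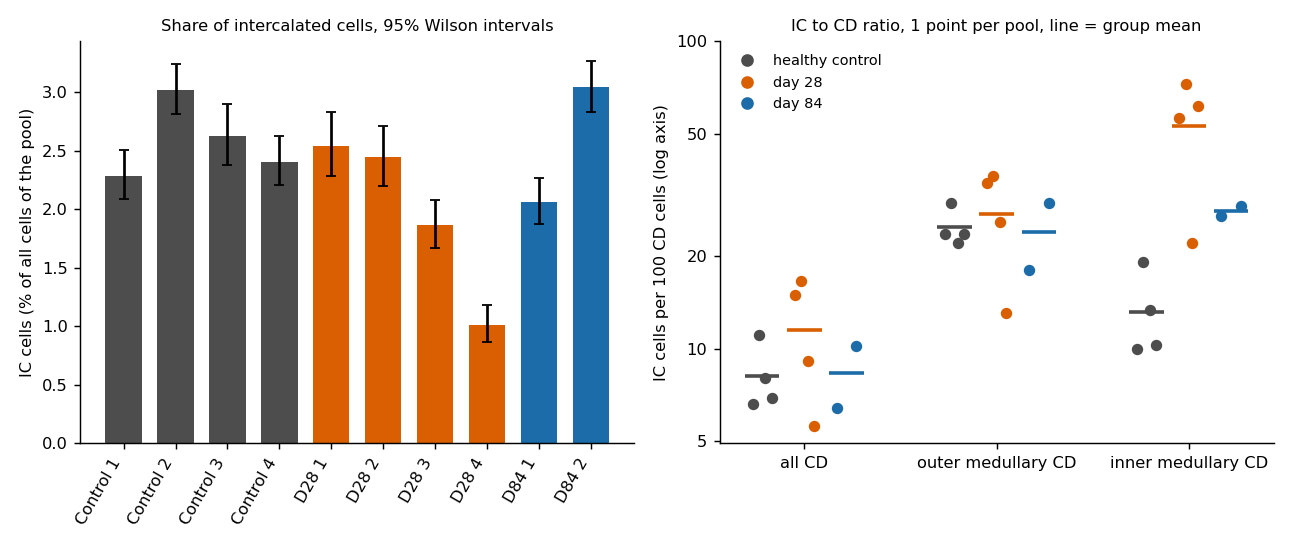
Left, ICs as a percentage of all cells in each of 10 pools, with 95% Wilson intervals that cover counting error only; right, ICs per 100 CD cells of 3 kinds on a log axis, with 1 point per pool and a line at the group mean. Pool D28 4 had the lowest share, at 1.01%, and the control points lie below all the others only for the inner medullary CD.

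The second question was whether ICs kept pace with the other cells of the CD type. It held 6 clusters, namely OM-CD_a and OM-CD_b of the outer medulla, IM-CD and deepIM-CD of the inner medulla, InjuredCD, and Uro, the urothelial cells that line the urinary space and are not duct cells. Per 100 CD cells of all clusters there were 6.63, 11.1, 8.06 and 6.91 ICs in the controls. The counts were 14.95, 16.6, 9.11 and 5.62 at day 28, then 6.42 and 10.2 at day 84. Day 28 therefore held both the highest and the lowest pool. The log2 ratio of ICs to CD cells differed from controls by 0.41 at day 28 (95% interval -0.55 to 1.36, limma adjusted p = 0.447) and by 0.02 at day 84 (95% interval -1.15 to 1.19, limma adjusted p = 0.974). The day 28 difference was 0.19 without D28 2 and 0.71 without D28 4 (limma adjusted p = 0.101). Without Uro the differences at day 28 and day 84 were 0.57 and 0.28 (limma adjusted p = 0.303 and 0.897).

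Splitting the CD by zone gave different pictures. Against the 2 outer medullary clusters together there were 23.6, 29.9, 22.2 and 23.7 ICs per 100 cells in controls, 34.5, 36.4, 25.9 and 13.1 at day 28, then 18.1 and 29.9 at day 84. Those groups overlapped, and the log2 ratio differed from controls by 0.05 at day 28 (95% interval -0.85 to 0.95, limma adjusted p = 0.904) and -0.09 at day 84 (95% interval -1.19 to 1.02, limma adjusted p = 0.940). Against the 2 inner medullary clusters there were 10.0, 19.2, 13.3 and 10.3 ICs per 100 cells in controls. At day 28 there were 56.4, 72.7, 22.1 and 61.7, and at day 84 there were 27.1 and 29.0. All 6 pools after R-UUO lay above all 4 control pools.

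The ratio of ICs to inner medullary CD cells rose at day 28 by 1.93 on the log2 scale (SE 0.456, limma adjusted p = 0.00199, exact permutation p = 0.0286, the smallest possible). At day 84 the difference was 1.14 (95% interval -0.07 to 2.34, limma adjusted p = 0.126). The inner medullary clusters made up 15.7% to 23.3% of control cells, 1.64% to 8.44% at day 28 and 7.62% to 10.5% at day 84. The outer medullary CD clusters made up 9.68% to 11.9%, 6.72% to 7.74% and 10.2% to 11.4%. The share of PT cells, which lie outside the inner medulla, was 0.113% to 3.02% in controls, 2.95% to 22.8% at day 28 and 3.60% to 7.64% at day 84. How much the level of dissection contributed to these ratios was not tested.

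Of the 6 ratios of ICs to another cell type, 2 passed the threshold at day 28 (33.3%), 2 at day 84 (33.3%) and 0 between the days (0%, limma, also 0 at an unadjusted p under 0.05). They were those to immune cells, with log2 changes of -4.93 at day 28 and -3.99 at day 84, and to PT cells, with -4.65 and -3.06. The PT ratio at day 84 no longer passed without pool D84 1 (limma adjusted p = 0.0678) or D84 2 (limma adjusted p = 0.143), nor with the 2 groups alone (limma adjusted p = 0.122) or without eBayes moderation (adjusted p = 0.0955 from the limma linear model). The ratios to loop of Henle (LOH), endothelial and fibroblast types did not pass, and that to LOH cells differed by -0.39 at day 28, by -0.07 there without D28 4, and by 0.04 at day 84.

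Cluster by cluster, the ratio of ICs to 16 of the 24 other clusters changed at day 28 (66.7%), with 5 rising and 11 falling. At day 84 it was 9 of 24 (37.5%), with 2 rising and 7 falling. Between the days it was 0 of 24 (0%), against 3 at an unadjusted p under 0.05 (limma) and 2 without Control 4 or without D28 4. The 24 ratios share the same IC counts and are not independent of each other, and every rise or fall is that of a quotient.

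Among CD clusters at day 28, ICs rose against IM-CD by 1.88 (SE 0.477, limma adjusted p = 0.00353) and against deepIM-CD by 1.96 (SE 0.544, limma adjusted p = 0.00504). There were 15.1 to 50.9 ICs per 100 IM-CD cells in controls and 67.8 to 147 at day 28. For deepIM-CD the numbers were 16.1 to 30.9 and 32.7 to 176. Both calls held in all 10 fits that left out 1 pool. At day 84 the differences were 0.92 and 1.30 (limma adjusted p = 0.195 and 0.122). With 1 pool left out they lay between 0.61 and 1.20 and between 0.98 and 1.62.

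Against InjuredCD, the injured CD cells, the log2 ratio of ICs changed by -5.91 at day 28 (limma adjusted p = 6.21e-07) and by -6.06 at day 84 (limma adjusted p = 1.07e-05). The 4 control pools held only 12, 17, 8 and 19 InjuredCD cells beside 379 to 736 ICs. The pools at day 28 held 337, 395, 399 and 808, and those at day 84 held 1173 and 866. ICs therefore outnumbered InjuredCD cells in every control pool and were outnumbered by them at day 84 in both pools, while at day 28 the ratio was 98.2, 86.8, 77.2 and 19.6 per 100.

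Against the urothelial cells of Uro, the change was -1.41 at day 28 (limma adjusted p = 0.0295) and -2.28 at day 84 (limma adjusted p = 0.0125). The exact permutation p was 0.0571 at day 28 and 0.0667 at day 84. The number of ICs per 100 Uro cells was 118 to 265 in controls, 29.1 to 131 at day 28 and 28.8 to 56.2 at day 84. The day 28 call was lost without Control 2, Control 3 or D28 3 (limma adjusted p = 0.0595, 0.0895 and 0.0506), and the day 84 call without D84 1 (limma adjusted p = 0.157).

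The outer medullary clusters stood between these. OM-CD_a, the larger, had 25.6 to 43.2 ICs per 100 cells in controls, 24.2 to 59.2 at day 28 and 30.9 to 46.4 at day 84. Its log2 difference was 0.52 at day 28 (limma adjusted p = 0.290) and 0.30 at day 84 (limma adjusted p = 0.650; 0.0043 to 0.59 with 1 pool left out), and of the 10 fits that left out 1 pool it passed at day 28 only in that without D28 4, at 0.81 (limma adjusted p = 0.0348). For OM-CD_b there were 97.2 to 163 ICs per 100 cells in controls, 28.6 to 94.5 at day 28 and 43.5 to 83.9 at day 84, so that both later groups lay below the controls. The log2 differences of -1.11 and -1.13 did not pass (limma adjusted p = 0.0534 and 0.126), and with 1 pool left out that at day 84 lay between -1.60 and -0.65. Their exact permutation p, not adjusted over clusters, was 0.0286 and 0.0667, the smallest possible in each comparison. The day 28 difference passed without Control 2, D28 1 or D28 2 (limma adjusted p = 0.0495, 0.0436 and 0.0361), and that at day 84 without D28 4 (limma adjusted p = 0.0332).

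Beside the CD, the thick ascending limb of the inner stripe (ISOM-TAL), a salt-reabsorbing segment of the same zone, held 43.2 to 107 ICs per 100 cells in controls, 48.0 to 66.4 at day 28 and 93.8 to 148 at day 84. Its log2 difference was -0.27 at day 28 (limma adjusted p = 0.548) and 0.70 at day 84 (limma adjusted p = 0.278). With 1 pool left out these lay between -0.51 and -0.08 and between 0.37 and 1.03, and none passed.

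The largest changes of the ratio outside the CD, among clusters with at least 100 cells in each condition, were to InjuredLOH at both times, at -6.60 and -5.36, and to immune cells. They were followed at day 28 by PT-S3_a, a proximal tubule cluster, at -4.05, or -3.12 without Control 4. At day 84 OSOM-TAL_b, of the thick ascending limb of the outer stripe, came second at -4.15. Without Control 4 OSOM-TAL_b at day 28 was at -3.85, ahead of PT-S3_a. With 1 pool left out, the day 84 change to InjuredLOH lay between -6.68 and -4.05. Without D84 1 it was -4.05, behind OSOM-TAL_b at -4.24. All of these calls held in all 10 fits that left out 1 pool. There were 1363 to 4211 ICs per 100 InjuredLOH cells in controls, 7.02 to 42.4 at day 28, and 19.4 and 120 at day 84. The control numbers behind these ratios were small. Control pools held 25, 54, 9 and 29 InjuredLOH cells and 16 to 70 immune cells, and Control 4 held only 5 PT-S3_a cells.

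The 3 other clusters against which ICs rose at day 28 are named here after their values were seen. They were EndoVR/papilla at 2.60 (1.91 without D28 4), Fib at 2.01 and ATL, of the ascending thin limb, at 1.79. The exact permutation p at day 28 was 0.0571, 0.0571 and 0.0286 for these clusters in turn. The first 2 also passed at day 84, at 2.50 and 1.81, but neither did without D84 1 (limma adjusted p = 0.166 for both) or D84 2 (limma adjusted p = 0.0618 and 0.0992). Both also failed without Control 1 (limma adjusted p = 0.0678 and 0.0961), and Fib without Control 3 (0.0513) or Control 4 (0.0858). Over all 10 pools the clusters whose number followed that of ICs most closely were DTL, OM-CD_a and ISOM-TAL. The SD of their log2 ratio to ICs was 0.46, 0.49 and 0.53, against 3.38 for InjuredLOH.

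**Figure D2:**
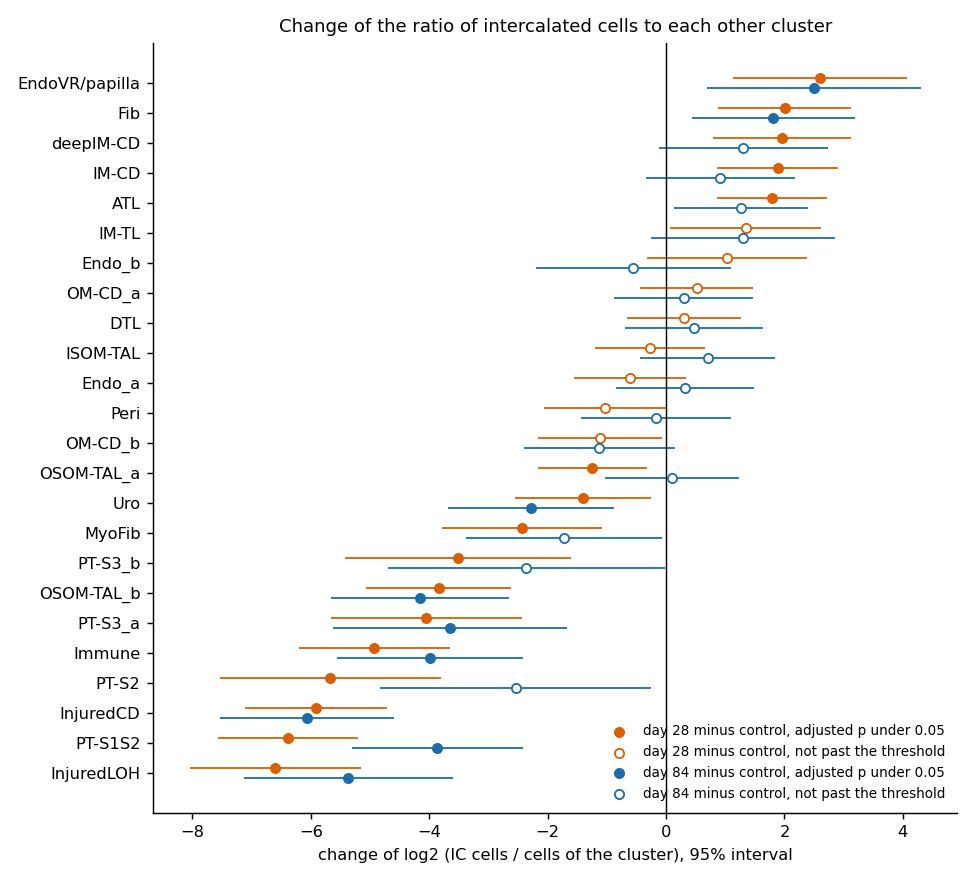
Change of the log2 ratio of ICs to each of 24 other clusters at day 28 and day 84 against controls, with 95% intervals from the limma fit; filled points passed an adjusted p of 0.05. Ratios to IM-CD, deepIM-CD, ATL, Fib and EndoVR/papilla lie to the right, those to Uro and to injured, immune and proximal tubule clusters to the left, and OM-CD_a, DTL and ISOM-TAL near 0.

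The depth of ICs differed between conditions. Their median UMI count was 1355, 2154, 1253 and 1358 in the control pools. At day 28 it was 2871, 2065, 1860 and 1678, and at day 84 it was 922 and 872. Both day 84 pools lay below the other 8, while Control 2 overlapped the day 28 pools.

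The log2 difference from controls was 0.47 at day 28 (95% interval -0.03 to 0.98, limma adjusted p = 0.0908) and -0.74 at day 84 (limma adjusted p = 0.0617). Day 84 minus day 28 was -1.21 (SE 0.308, limma adjusted p = 4.59e-04, exact permutation p = 0.0667, the smallest possible). All 7 cell types moved the same way in each comparison. 3 of them passed at day 28 (42.9%), 1 at day 84 (14.3%) and 7 between the days (100%), so the fall between the days was not particular to ICs. Without Control 2 the rise at day 28 was 0.65 (limma adjusted p = 0.0201), and without D28 4 it was 0.58 (limma adjusted p = 0.0498). The difference at day 84 passed without D28 1 (limma adjusted p = 0.0100).

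Within a pool, ICs had more UMIs than endothelial cells, fibroblasts and immune cells in 10 of 10 pools and fewer than PT cells in 10 of 10. They had fewer than CD cells in 9 of 10 and more than LOH cells in 6 of 10. Among 25 clusters their median ranked 10th to 15th from the top. Inside the CD they lay above IM-CD in 10 of 10 pools and above OM-CD_a in 7 of 10, and below OM-CD_b, Uro and deepIM-CD in 10 of 10. Since clusters were formed from these cells, this is a description.

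Measured against the other cells of their pool, ICs moved with condition relative to 2 of 6 types at day 28 (33.3%) and 0 of 6 at day 84 (0%, limma, also 0 at an unadjusted p under 0.05). Over cells with at least 500 genes, the day 84 changes relative to immune cells (-0.47, limma adjusted p = 0.0275) and PT cells (0.43, limma adjusted p = 0.0347) passed. The IC median was above that of LOH cells in all 4 control pools, with 1355, 2154, 1253 and 1358 UMIs beside 1117, 1601, 1149 and 1130. It was below it in all 4 pools at day 28, with 2871, 2065, 1860 and 1678 beside 3421, 2399, 2080 and 1855. In both day 84 pools it was again above, with 922 and 872 beside 890 and 708. The change of the log2 difference to LOH was -0.47 at day 28 (SE 0.137, limma adjusted p = 0.00854, exact permutation p = 0.0286), against -0.10 at day 84 (limma adjusted p = 0.671).

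The LOH type itself changed in makeup, since InjuredLOH was 0.0624% to 0.222% of all cells in controls and 5.99% to 14.4% at day 28. The part of this in the difference was not tested. Relative to PT cells ICs gained 0.36 at day 28 (limma adjusted p = 0.0351), a call lost without Control 1, Control 2, D28 3 or D28 4 (limma adjusted p = 0.0885, 0.0749, 0.203 and 0.141) and with means in place of medians (0.17, limma adjusted p = 0.552). Relative to CD cells the change was -0.26 (limma adjusted p = 0.120), and -0.15 without Control 1 (limma adjusted p = 0.471). It passed at -0.41 without Control 4 (limma adjusted p = 0.0133). It also passed at -0.37 without the 5% of cells with the most UMIs (limma adjusted p = 0.0124).

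**Figure D3:**
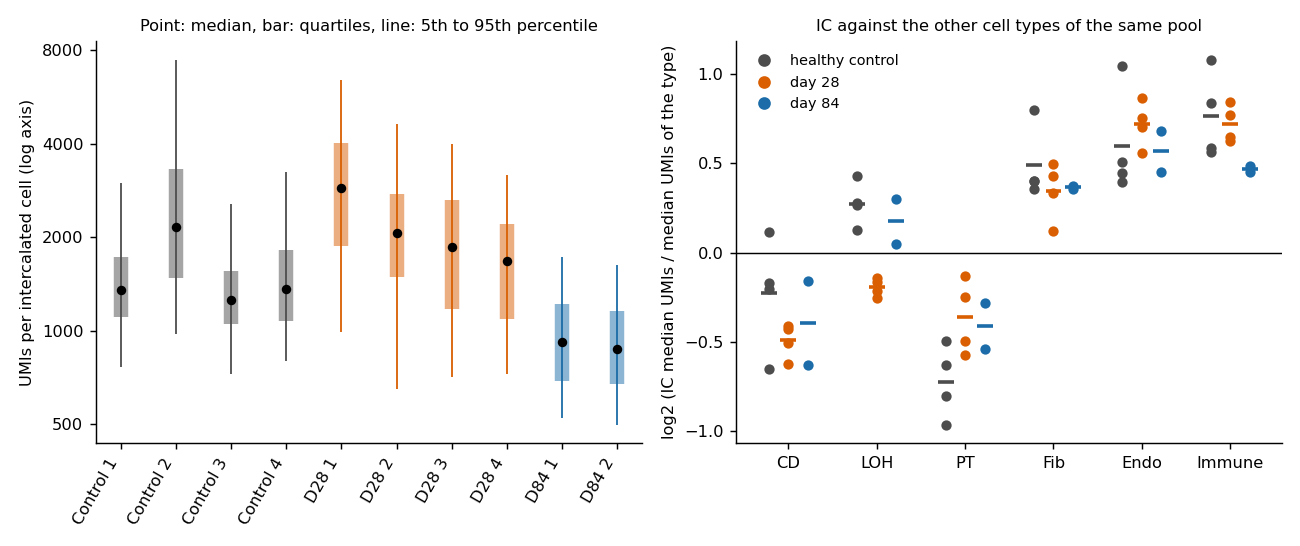
Left, UMIs per IC in each pool on a log axis (point, median; bar, quartiles; line, 5th to 95th percentile); right, log2 ratio of the IC median to the median of each other cell type of the same pool, with 1 point per pool and a line at the group mean. Both day 84 pools lie lowest at left, and the LOH points change side of 0 only at day 28.

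The spread among ICs of a pool was wide. The upper quartile was 1.49 to 2.24 times the lower in controls, 1.86 to 2.25 times at day 28 and 1.73 and 1.77 times at day 84. Above 5000 UMIs there were 87 of 736 ICs in Control 2 (11.8%) and 32 of 331 in D28 1 (9.67%), but at most 13 in any other pool and 0 of 1131 at day 84. The highest count was 48110 UMIs, in Control 2.

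Detected genes followed the UMI counts, with a Spearman correlation of 0.992 to 0.997 over the ICs of a pool. The median number of genes per IC was 1121, 1548, 1015 and 1061 in controls, 1905, 1494, 1352 and 1234 at day 28, then 772 and 727 at day 84. On the log2 scale the difference from controls was 0.34 at day 28 (limma adjusted p = 0.121) and -0.64 at day 84 (SE 0.236, limma adjusted p = 0.0208). Day 84 minus day 28 was -0.98 (limma adjusted p = 2.29e-04). Of the 7 cell types 4 passed at day 28 (57.1%), 6 at day 84 (85.7%) and 7 between the days (100%). Without Control 2 the day 28 rise passed (0.47, limma adjusted p = 0.0288), and without D84 2 the day 84 fall did not (-0.60, limma adjusted p = 0.213).

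Relative to the other types, the number of genes changed against 1 of 6 at day 28 (16.7%), again LOH, at -0.35 (limma adjusted p = 0.0162), and against 0 of 6 at day 84 (0%, limma, also 0 at an unadjusted p under 0.05). The LOH call was lost without D28 2 or D28 4 (limma adjusted p = 0.0507 and 0.0571). Over cells with at least 500 genes, PT cells also passed at day 28 (0.30, limma adjusted p = 0.0166) and immune cells at day 84 (-0.37, limma adjusted p = 0.0352), and with means immune cells passed at day 28 (-0.32, limma adjusted p = 0.0293). Between cells of like depth, in bins of 0.25 log2 UMI, the LOH change was -0.01 (limma adjusted p = 0.776), and other types passed instead. At day 28 it was 1 of 6 (16.7%), endothelial cells at 0.08 (limma adjusted p = 0.0153). At day 84 it was 2 of 6 (33.3%), immune cells at 0.08 and PT cells at -0.09 (limma adjusted p = 0.0330 for both). The immune comparison rests on 8 to 248 matched ICs per control pool, and Control 4 gave no value against PT cells. In the same bins ICs carried more genes than CD cells in 9 of 10 pools, with a log2 difference of -0.05 in Control 1 and 0.01 to 0.10 elsewhere.

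In the deposited values, which may be those after ambient RNA correction, ICs carried fewer mitochondrial transcripts in every pool after R-UUO than in any control pool. Their mean share of a cell's UMIs was 1.91%, 3.54%, 1.45% and 2.07% in the control pools. At day 28 it was 0.570%, 0.104%, 0.0873% and 0.0534%, and at day 84 it was 0.110% and 0. Every pool after R-UUO lay below every control pool. The mean fell by 2.04 percentage points at day 28 (SE 0.372, limma adjusted p = 2.65e-04, exact permutation p = 0.0286). At day 84 the mean fell by 2.19 points (SE 0.456, limma adjusted p = 7.66e-04, exact permutation p = 0.0667). With the median over cells in place of the mean, the differences were -1.35 points at day 28 and -1.39 points at day 84, and both passed. All 7 cell types passed at both times (100% and 100%), so the fall was not particular to ICs. The part of ambient RNA correction in this fall was not tested, and droplet run and condition cannot be told apart.

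ICs without any mitochondrial UMI numbered 0, 0, 2 and 4 in the control pools. At day 28 they were 61 of 331, 233 of 343, 215 of 308 and 128 of 158, and at day 84 they were 250 of 408 and 723 of 723. In D84 2 all 7062 CD cells and all 435 immune cells were at 0 as well. ICs at day 28 had a median of 1678 UMIs or more, above 3 of the 4 control pools. In the third of ICs with the fewest UMIs, the median was 1007, 1312, 968 and 986 UMIs in the control pools. Of those cells 0%, 0%, 0% and 1.84% were without a mitochondrial UMI. The part of depth in these counts was not tested.

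CD clusters of both zones and ISOM-TAL differed from ICs in this measure. ICs exceeded OM-CD_a and IM-CD in mitochondrial share in 9 of 10 pools and equalled them at 0 in D84 2. They lay below ISOM-TAL in 10 of 10 and below OM-CD_b in 7 of 10 (above in 2). Against deepIM-CD, of the inner medulla, ICs lay below in 6 of 10 pools, among them all 4 controls, and above in 3. ISOM-TAL, a segment packed with mitochondria, held 4.16% to 5.31% in controls, 1.79% to 3.76% at day 28, and 2.60% and 3.23% at day 84. In D84 2 ISOM-TAL thus stood at 3.23% while ICs and all CD clusters stood at 0.

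The difference between ICs and CD cells was -0.07 percentage points in controls, 0.07 at day 28 and 0.01 at day 84, and its change did not pass (limma adjusted p = 0.662 and 0.831). Of the differences to the 6 other types 3 passed at day 28 (50%) and 4 at day 84 (66.7%). Those to fibroblasts, endothelial and immune cells fell at both times, by 1.11, 0.89 and 0.94 points at day 28. In controls ICs had stood 1.01 to 1.25 points above these types. IC means after R-UUO were at most 0.570%, so gaps of that size in points could not remain. These falls therefore do not show that ICs lost ground relative to these types. The IC mean was above that of fibroblasts and of endothelial cells in 9 of 10 pools (below in 1), and above that of immune cells in 7 (below in 2). At day 84 all 4 calls were lost with 2 groups alone (limma adjusted p = 0.0900 to 0.132). Fits without D84 1 or D84 2 left 1 pool at day 84, so only sizes are given. The fit over cells above 0% mitochondrial did so too, since the ICs, CD cells and immune cells of D84 2 were all at 0. In these fits the change to fibroblasts was -1.26, -1.20 and -1.19 points, and that to PT cells was 0.99, 0.75 and 0.79 points. With medians in place of means none of the 3 passed at either time. The difference to LOH cells passed at day 28 over cells above 0% mitochondrial (-0.99, limma adjusted p = 0.0216) and at both times without Control 3 (limma adjusted p = 0.00330 and 0.00803), and that to PT cells passed at day 28 without Control 1 (limma adjusted p = 0.0285). PT cells held means of 0.348% in D84 1 and 0.00416% in D84 2, which left no room for a gap of 0.99 points. The difference to PT cells, in which ICs had stood 0.99 points lower in controls, rose by 0.87 points at day 84 (limma adjusted p = 0.0427). It was lost in 9 of the 10 fits that left out 1 pool.

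Within the control pools the mitochondrial share was higher in the ICs with the most UMIs. From the third of ICs with the fewest UMIs to the third with the most, the mean went from 1.38% to 2.94% in Control 1, from 2.26% to 5.16% in Control 2, from 1.17% to 2.15% in Control 3 and from 1.30% to 3.44% in Control 4. ICs between these stood at 1.41%, 3.19%, 1.01% and 1.47%, so that most of the difference lay in the cells with the most UMIs, and in Control 3 the middle cells had the lowest mean. At day 28 the same steps were 0.636% to 0.552%, 0.0889% to 0.202%, 0.145% to 0.0567% and 0.0278% to 0.105%, which had no common direction. The Spearman correlation of UMIs with mitochondrial share was 0.20 to 0.45 over the 379 to 736 ICs of a control pool and -0.13 to 0.18 at day 28. The measures share the UMI total, and cells of 1 pool are not replicates.

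**Figure D4:**
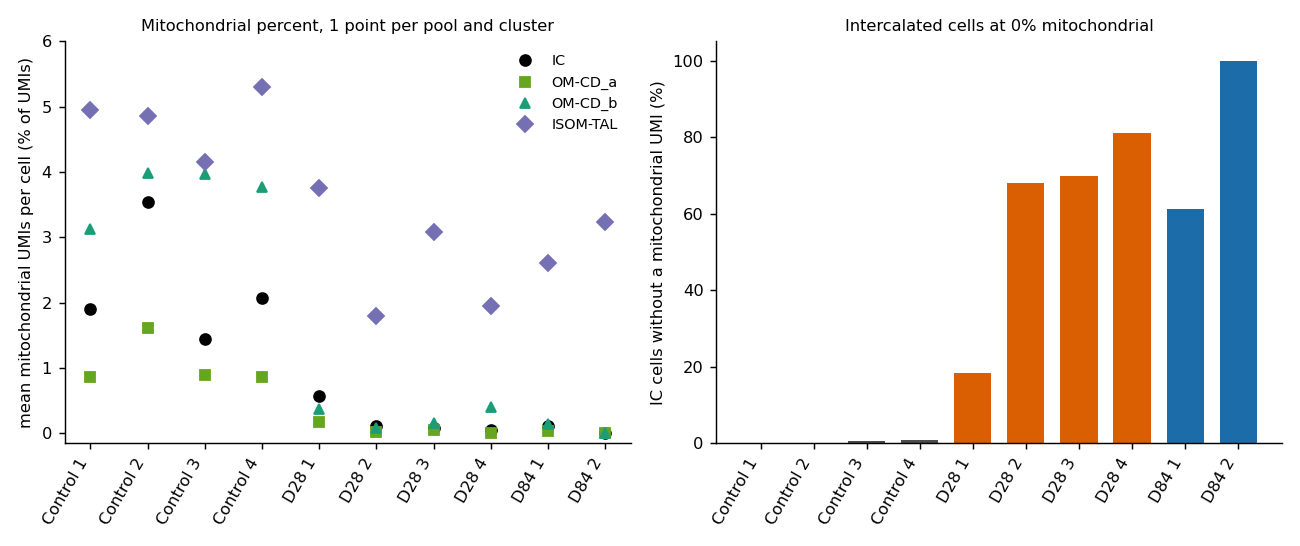
Left, mean mitochondrial percent of UMIs in ICs, in both outer medullary CD clusters and in ISOM-TAL, with 1 point per pool; right, percent of ICs without a mitochondrial UMI in each pool. ICs fell from 1.45% to 3.54% in controls to at most 0.570% afterwards. ISOM-TAL also fell, from 4.16% to 5.31% in controls to 1.79% to 3.76% afterwards.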

How the data were processed

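Fixed cells were measured with a probe-based droplet assay. The submitters' processing notes name Cell Ranger 7.1 and mm10. By the methods, cells under 300 genes or above 10% mitochondrial reads were dropped by the authors, SoupX took out ambient RNA, scDblFinder and a screen for mixed signatures took out doublets, and Seurat clustered the cells. The deposited values are, per cell, a UMI count (an expected count, fractional, in Control 1), a count of detected genes and a mitochondrial percent, beside pool, cell type and cluster.

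Cells were counted per pool, 0.5 cells were added, and log2 odds, log2 ratios, log2 medians and mean percents were compared with limma 3.58.1 (R 4.3.3), 3 conditions in 1 fit, two-sided, Benjamini-Hochberg adjustment over the cell types or clusters. Pools of mice were the replicates. Exact permutation tests were two-sided. The cell types of 1 pool share its depth and are not independent. Tested on simulated day 28 data, a log2 change of 1 in the IC share was called in 50.5% of 200 sets, and of 2 in 99.5%. Tables and plots used Python 3.11.15, pandas 2.3.3, scipy 1.17.1 and matplotlib 3.10.9.

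The members, lists and tests were chosen with earlier results of these data known. Clusters named are all CD clusters, ISOM-TAL, and up to 3 others per comparison with the largest changed ratio and at least 100 cells in each condition. Alternatives were other filters (500 genes, 5% mitochondrial, 1000 UMIs, without the top 5% by UMIs), denominators, CD sets, means against medians, unmoderated fits, 2 groups alone, and leaving out each pool.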

Additional observations from a re-analysis of the deposited data

Results flagged for a closer look

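In Control 2 the median IC had 2154 UMIs, and its gap to the next control pool was 0.883 of the range of the 4 control pools. In D28 1 the mean mitochondrial share of ICs was 0.570%, with a gap of 0.902 of the range at day 28. These were 2 pools standing apart among 18 groups of 4 pools examined, where chance gives about 0.9.

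The change of the IC median UMI count against controls differed between day 84 and day 28 by -1.21 on the log2 scale (limma adjusted p = 4.59e-04), and that of the median number of detected genes by -0.98 (limma adjusted p = 2.29e-04). Both were lower in 2 of 2 pools at day 84 than in all 4 at day 28, and all 7 cell types moved alike. The cause was not tested.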

How the results depend on the processing

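Of 346 alternative values for 21 tested differences, 307 kept both direction and side of the threshold, and of 54 for 3 counts of changed cluster ratios, 47 stayed within 1.5 times the count reported. Unmoderated fits, fits of 2 groups alone and fits without a pool of the third condition kept the same difference and could change only its error. Such fits are among those counted, also where a call held in all 10 fits that left out 1 pool. Every value for the fall of the mitochondrial percent and for the fall of UMIs and genes between the days kept its call. The IC share of all cells at day 84 was near 0 and changed sign: 0.14 with at least 500 genes, 0.11 with at most 5% mitochondrial and 0.032 without proximal tubule cells. As a share of ICs plus CD cells, another quantity, the differences were 0.41 at day 28, 0.018 at day 84 and -0.39 between the days. The IC to CD ratio at day 28 became 1.93 and passed with inner medullary CD cells alone. At day 84 it turned to -0.0067 without the top 5% by UMIs, -0.59 with at least 1000 UMIs and -0.087 with outer medullary CD cells alone.

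The day 84 fall of IC UMIs passed with means (-0.91), without the top 5% by UMIs (-0.73) and with 2 groups alone (-0.74). Relative to CD cells and with means, UMIs changed by 0.060 and 0.34 at days 28 and 84 (without the top 5% by UMIs the day 28 change was -0.37 and passed), and genes by 0.089 and 0.097. In matched UMI bins the genes changed by 0.058 and 0.064. The mitochondrial difference to CD cells was -0.11 and -0.16 points without the top 5% by UMIs. The count of changed cluster ratios was 14 at day 84 with 2 groups alone. Between the days it was 1 with at most 5% mitochondrial, 1 with at least 1000 UMIs, 1 with 1 cell added and 1 with 2 groups alone. Leaving out cells that shared a droplet barcode, an alternative chosen after seeing the data, changed no call of the share or the CD ratio and gave 17, 9 and 0 changed cluster ratios, against 16, 9 and 0.

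Leaving out 1 pool, the ranges were -0.32 to 0.25 for the share at day 84, 0.15 to 0.73 for the share between the days, and 0.19 to 0.71, -0.32 to 0.35 and -0.73 to -0.053 for the CD ratio at day 28, at day 84 and between the days. For IC UMIs they were 0.32 to 0.65 at day 28 and -0.82 to -0.56 at day 84, and for genes 0.21 to 0.47 and -0.71 to -0.51. Relative to CD at day 84 they were -0.40 to 0.070 for UMIs and -0.29 to 0.21 for genes. For the mitochondrial difference to CD they were -0.078 to 0.40 points at day 28 and -0.13 to 0.34 at day 84. The count of changed ratios between the days was 0 to 2. The causes were not tested. Without a pool of day 84, its lone pool was assumed to vary like the others. The same holds for the fits over cells above 0% mitochondrial, which left out D84 2. No paired analysis was possible because pools of different conditions share no label.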
